A study of Homo sapiens with 6 samples.

Results

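The genes described here encode the aminoacyl-tRNA synthetases, the enzymes that attach each amino acid to its transfer RNA. They were chosen by name: 20 genes of the cytosolic enzymes, 16 genes of the mitochondrial enzymes and the 3 non-enzymatic proteins of the multi-synthetase complex (AIMP1, AIMP2 and EEF1E1), 39 of the 58735 genes in the deposited table, and all 39 were found. Messenger RNA had been sequenced from AZ-521 cells, labelled as wild-type gastric cancer cells (cell banks give the line's origin as duodenal). The treated group had received 10 µM platycodon D (PD), a plant saponin, for 48 h, and the control group its solvent DMSO for 48 h, with 3 samples in each. All samples came from this single line. The labels do not tell whether replicates were grown separately, so each p-value reflects the spread among these 6 samples alone, and that spread may be technical. In bulk RNA a lower level in each cell and a loss of cells with a high level cannot be told apart.

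Each synthetase reads 1 amino acid, apart from EPRS, which joins a glutamate and a proline enzyme. The enzymes fall into a pair of unrelated structural classes, class I and class II. Human cells keep separate nuclear genes for most cytosolic and mitochondrial enzymes, but GARS (glycine) and KARS (lysine) each supply both compartments from a single gene, and the mitochondrion makes its glutaminyl-tRNA by an amidotransferase rather than by a synthetase of its own. Several cytosolic enzymes form the multi-synthetase complex around the 3 scaffold proteins. Many cytosolic synthetase genes are known targets of ATF4, the transcription factor of the amino acid and integrated stress responses, which binds C/EBP-ATF response elements near their start sites.

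The start regions are shown because they hold this element in several of the members that moved most, a search made with the results known. In RefSeq windows of 300 bases (250 before to 50 after the start, GRCh38.p14), 33 of the 39 genes had an entry, and DARS, LARS, VARS, YARS, AARS2 and VARS2 did not. A gene had 1 to 3 windows and was counted once if any of them held the letters, and all genes were counted in the same way. The letters TGATGNAA, searched on both strands, occurred in 7 of 16 cytosolic genes, in 1 of 14 mitochondrial genes and in 0 of 3 scaffold genes. Over all 15842 protein-coding genes with an entry, 3.60% held them. The 7 cytosolic windows and the mitochondrial one follow with 10 bases on either side, each written 5′ to 3′ on the strand of its gene with the matching letters in capitals.
GARS: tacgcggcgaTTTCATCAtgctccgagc
MARS: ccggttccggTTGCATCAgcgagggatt
IARS: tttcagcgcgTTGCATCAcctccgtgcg
AARS: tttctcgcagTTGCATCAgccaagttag
TARS: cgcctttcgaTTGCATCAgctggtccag
CARS: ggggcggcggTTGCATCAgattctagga
NARS: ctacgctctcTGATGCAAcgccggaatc
YARS2: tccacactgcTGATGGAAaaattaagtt
These lie at chr7:30594835-30594862 (plus strand) for GARS, chr12:57488054-57488081 (plus) for MARS, chr9:92293693-92293720 (minus) for IARS, chr16:70289676-70289703 (minus) for AARS, chr5:33440957-33440984 (plus) for TARS, chr11:3057408-3057435 (minus) for CARS, chr18:57621805-57621832 (minus) for NARS and chr12:32756077-32756104 (minus) for YARS2. The word read TTGCATCA, the reverse complement of TGATGCAA, in 5 of these genes, TGATGCAA itself in NARS, TTTCATCA in GARS and TGATGGAA in YARS2. A match describes these letters only and does not show that a factor binds there.

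Depth was similar in all samples, between 14915538 and 16341687 recovered reads over genes. Of the 5 epithelial and 7 stomach marker genes looked up, 0 reached the expression filter in either list. Of the 4 intestine markers 1 did, CDX2, at 1.27 ± 0.296 FPKM in DMSO and 1.18 ± 0.238 FPKM in PD. Of the 5 fibroblast markers 1 did, VIM, which fell from 102 ± 6.03 to 78.0 ± 9.50 FPKM (SD, n = 3; adjusted p = 0.0367 in limma), while COL1A1, COL1A2, DCN and PDGFRB stayed below 1 FPKM. KRT18 and KRT19 were listed at 0 in every sample, but so was the elongation factor gene EEF1G, which every cell uses, so a listed 0 may be a failed estimate. The epithelial markers EPCAM, CDH1 and KRT8 were not at 0 throughout but had few reads per sample, 1 to 10, 0 to 2 and 30 to 52. The annotation of KRT8 overlaps that of KRT18, and whether its value is affected was not tested. Samples of a group differed along transcript GC content. Across 13572 genes, the deviation of DMSO replicate 1 from its group mean correlated with transcript GC content at a Spearman rho of -0.64, and that of PD replicate 3 at -0.53, against 0.46, 0.54, 0.61 and 0.02 in DMSO replicates 2 and 3 and PD replicates 1 and 2. Over the 39 genes described here the same values were -0.75 and -0.78, against 0.74, 0.62, 0.75 and 0.36. The deviation of PD replicate 1 thus followed GC content about as closely as that of PD replicate 3, in the opposite direction, with PD replicate 2 between them. These rho values do not give the size of the deviations. Results are also given without DMSO replicate 1 and PD replicate 3, the samples with negative values, and without each sample in turn.

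Cytosolic synthetase mRNAs were abundant and mitochondrial ones scarce. The plot of FPKM by gene shows the order. FPKM (fragments scaled by gene length and by library depth) corrects for length, so levels can be compared between genes as far as the deposited gene lengths hold. The cytosolic genes summed to 1474, 1371 and 1415 FPKM in DMSO and to 1242, 1210 and 1353 FPKM in PD, here and below in the order of replicates 1 to 3. The mitochondrial genes summed to 179, 163 and 165 FPKM in DMSO and to 149, 148 and 163 FPKM in PD. Within a sample the cytosolic sum was 8.24 to 8.56 times the mitochondrial sum in DMSO and 8.19 to 8.31 times in PD, so these ranges overlapped. Sums weigh abundant genes most, so this ratio does not describe the typical member. The mitochondrial sum holds IARS2 at means of 76.4 FPKM in DMSO and 65.6 FPKM in PD. The cytosolic sum holds GARS at 190 and 258 FPKM. For 16 of the 17 pairs of a cytosolic and a mitochondrial gene of the same amino acid the cytosolic gene was the more abundant, with a median ratio of means of 9.13. The exception was histidine, where HARS stood at 6.95 and HARS2 at 9.03 FPKM over all samples. That order rests on the deposited lengths of 7853 and 3736 bases, since HARS had 693 to 1053 reads per sample and HARS2 469 to 612. The isoleucine enzyme IARS2 was the most abundant mitochondrial member, at 71.0 FPKM over all samples. Among the cytosolic members HARS was lowest, and the glycine enzyme GARS was highest over all samples and in PD, while in DMSO its mean of 190 FPKM and the 192 FPKM of SARS lay within their spread. SARS2, the mitochondrial serine enzyme, was below the filter, at 0.610 ± 0.180 FPKM in DMSO and 0.643 ± 0.0555 FPKM in PD (SD, n = 3), from 20 to 40 reads per sample, and was not tested. The gene AC011455.2, listed at 0, overlaps SARS2 by 15493 bases on the same strand. What this overlap does to the value of SARS2 was not tested.

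**Figure D1:**
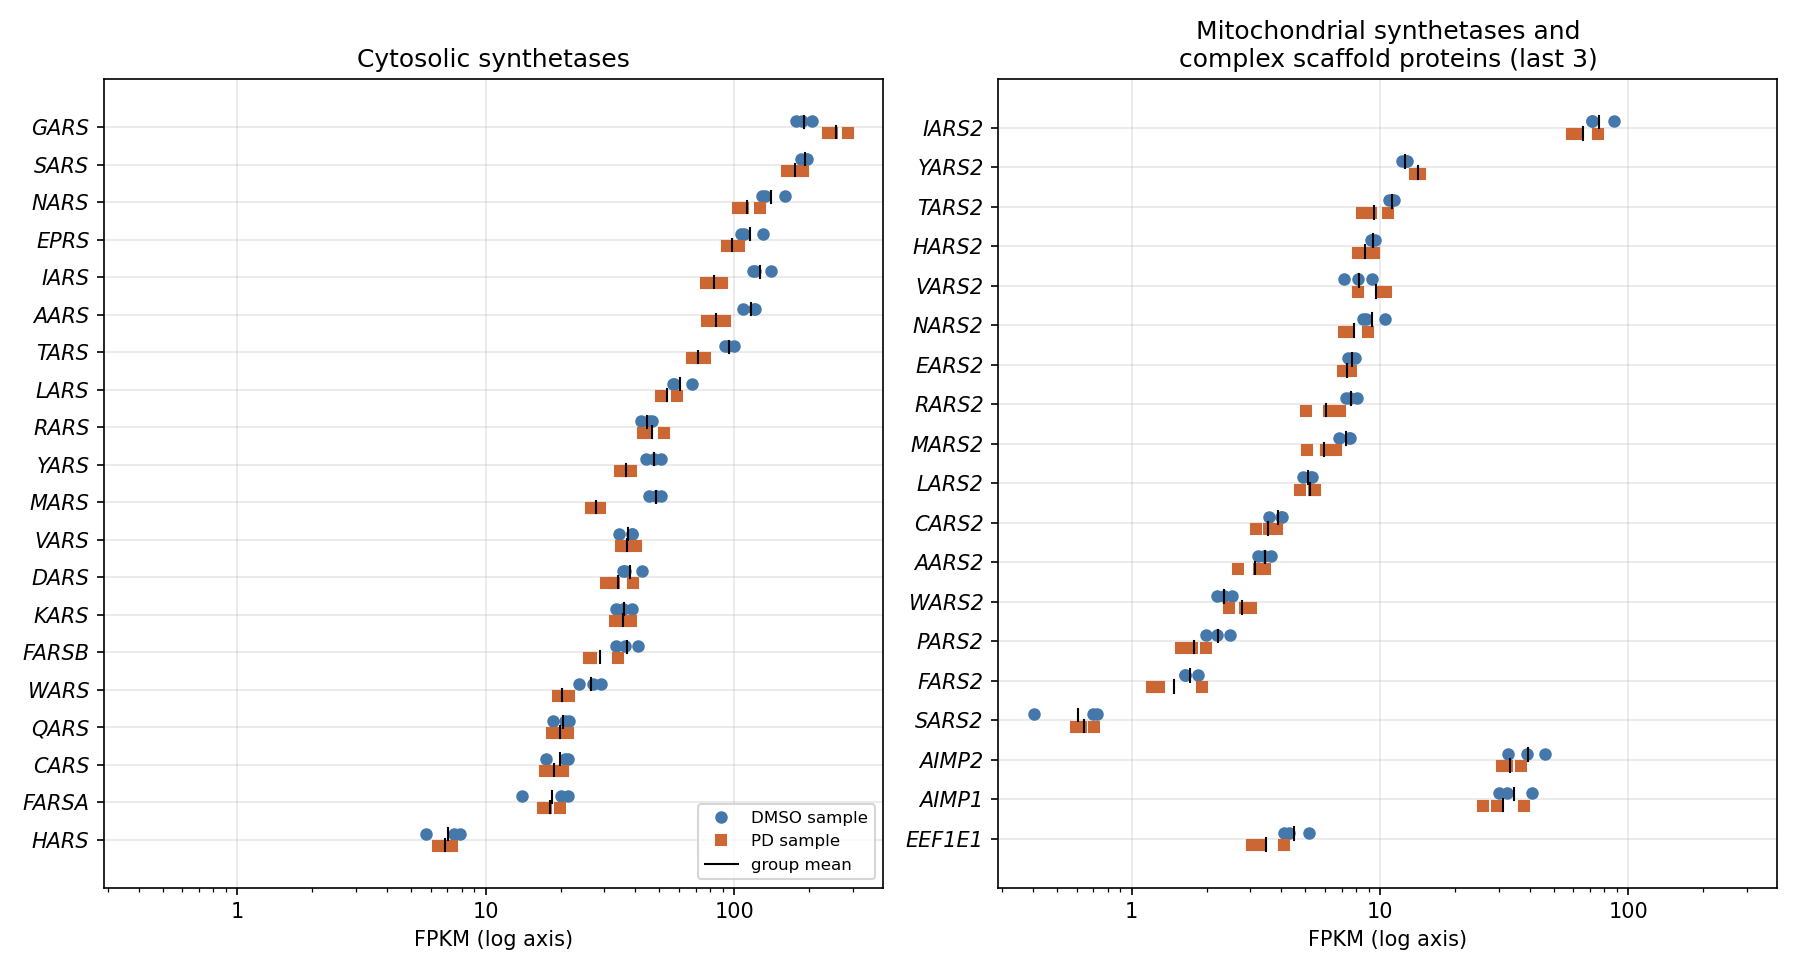
FPKM (log axis) of each synthetase gene in the 3 DMSO samples (circles) and 3 PD samples (squares), with group means as black ticks, cytosolic genes on the left and mitochondrial genes and the 3 scaffold genes on the right. GARS lies at the top with PD above DMSO, MARS and IARS have PD well below DMSO, and most mitochondrial genes lie below 15 FPKM.

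Levels in PD and DMSO were compared to find which of these mRNAs changed after 48 h. Among the 20 cytosolic genes 6 fell (MARS, IARS, AARS, TARS, YARS and WARS) and 1 rose (GARS). Among the 15 tested mitochondrial genes 0 passed the test in either direction, and among the 3 scaffold genes 0 did. "Rose" and "fell" mean an adjusted p under 0.05 in limma on log2(FPKM + 1), with Benjamini-Hochberg adjustment across the 13579 genes that passed the filter. This scale understates changes of genes at low FPKM. Of all genes tested, 12.7% fell and 14.3% rose by this rule, 27.1% in all. The 7 changes were modest: 0 of them reached the 2-fold change that the labels name as a criterion, which 3.82% of all genes met together with the adjusted p. The median log2 fold change was -0.17 for the cytosolic genes, -0.11 for the mitochondrial genes and -0.22 for the scaffold genes, against 0.00102 for all genes tested. The order of the cytosolic and mitochondrial medians was not stable. It turned round after correction for transcript GC content (-0.16 and -0.18) and without PD replicate 1 (-0.13 and -0.15). All 3 PD samples lay below all 3 DMSO samples for 8 cytosolic genes, where 21.9% of all genes did, and above them for 1, where 22.5% did. For the mitochondrial genes these counts were 4 and 1, and for the scaffold genes 1 and 0.

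**Figure D2:**
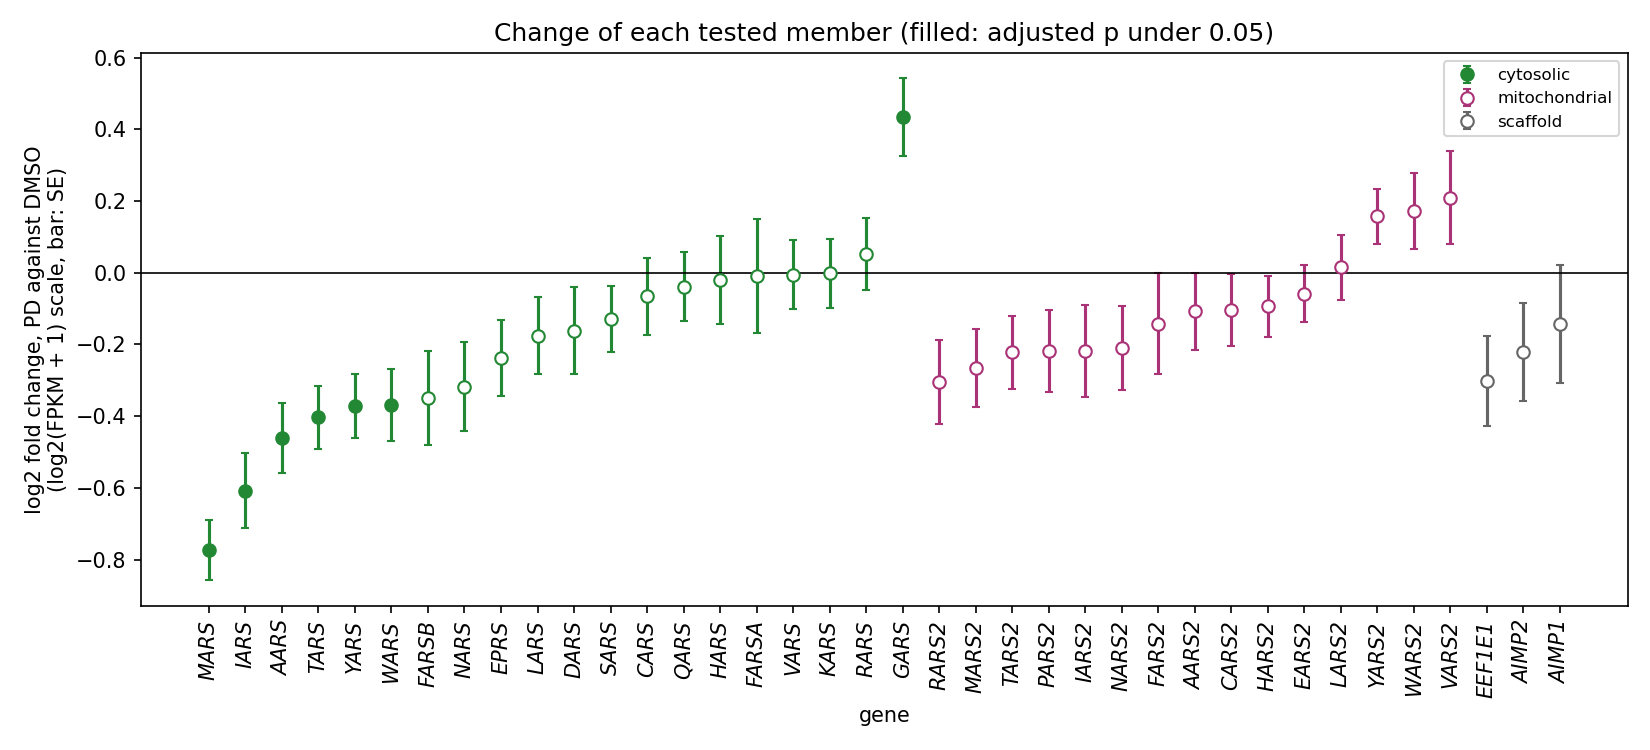
Log2 fold change of PD against DMSO with its SE for the 38 tested members, in 3 blocks (cytosolic, mitochondrial, scaffold) ordered by size, with filled points at an adjusted p under 0.05. GARS at 0.43 stands alone above 0 among the filled points, and MARS at -0.77 is the lowest.

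MARS, the methionine enzyme, which charges both initiator and elongator tRNA and is a class I member of the multi-synthetase complex, fell most. It stood at 45.4, 48.5 and 50.8 FPKM in DMSO and at 28.9, 27.8 and 26.6 FPKM in PD. The groups were far apart and each was tight. MARS (ENSG00000166986, chromosome 12, 57475445 to 57517569, plus strand, GRCh38) thus had a log2 fold change of -0.77 ± 0.08 (SE, adjusted p = 0.00121 in limma). Its 3′ end overlaps that of DDIT3, which encodes the stress transcription factor CHOP, by 982 bases on the opposite strand. DDIT3 went the other way, from 141 ± 4.16 to 209 ± 10.5 FPKM (SD, n = 3; adjusted p = 0.00401 in limma). No source used here states whether the authors counted by strand, so the part of reads from the overlap in either value was not tested.

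IARS, the isoleucine enzyme and another class I member of the complex, stood at 141, 122 and 119 FPKM in DMSO and at 76.9, 82.4 and 89.6 FPKM in PD. All PD samples were below all DMSO samples, although DMSO replicate 1 and PD replicate 3 were the highest of their groups. IARS (ENSG00000196305, chromosome 9, 92210207 to 92293756, minus strand) had a log2 fold change of -0.61 ± 0.11 (SE, adjusted p = 0.00659 in limma). The calls of MARS and IARS held under all 18 alternatives of processing and sample choice that gave a test, with adjusted p-values of at most 0.0179 and 0.0412.

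AARS, the alanine enzyme, a class II enzyme outside the complex, stood at 109, 121 and 121 FPKM in DMSO and at 92.2, 83.7 and 77.8 FPKM in PD, so that the groups did not overlap (log2 fold change -0.46 ± 0.10, SE; adjusted p = 0.0142 in limma). TARS, the threonine enzyme, also class II, stood at 99.4, 91.6 and 94.5 FPKM in DMSO and at 70.9, 67.8 and 76.5 FPKM in PD (-0.40 ± 0.09, SE; adjusted p = 0.0147 in limma). In both genes the gap between the groups was larger than the range within either. AARS lies on chromosome 16 (70252295 to 70289543, minus strand) and TARS on chromosome 5 (33440696 to 33469539, plus strand). AARS did not pass without DMSO replicate 2, DMSO replicate 3 or PD replicate 2 (adjusted p = 0.0600, 0.0575 and 0.0574 in limma), and TARS not without DMSO replicate 3, PD replicate 1 or PD replicate 2 (adjusted p = 0.0537, 0.052 and 0.0679 in limma).

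YARS and WARS, the class I enzymes of tyrosine and tryptophan, both work outside the complex, and both proteins are known for fragments that act as extracellular signals. YARS stood at 44.3, 47.6 and 50.9 FPKM in DMSO and at 38.3, 34.7 and 36.6 FPKM in PD (log2 fold change -0.37 ± 0.09, SE; adjusted p = 0.0214 in limma). WARS stood at 23.8, 27.0 and 29.1 FPKM in DMSO and at 19.8, 19.6 and 21.7 FPKM in PD (-0.37 ± 0.10, SE; adjusted p = 0.0329 in limma). Neither gene's groups overlapped, but the lowest DMSO value of WARS came close to its highest PD value. YARS lies on chromosome 1 (32775237 to 32818153, minus strand) and WARS on chromosome 14 (100333788 to 100376805, minus strand). YARS did not pass without DMSO replicate 2, DMSO replicate 3 or PD replicate 2 (adjusted p = 0.0762, 0.0848 and 0.0895 in limma). WARS did not pass without DMSO replicates 2 or 3 or PD replicates 1 or 2, each in turn (adjusted p = 0.103, 0.115, 0.0965 and 0.114 in limma), nor with no filter (0.0644).

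GARS was the member that rose. It stood at 205, 178 and 188 FPKM in DMSO and at 239, 248 and 287 FPKM in PD, with all PD samples above all DMSO samples (ENSG00000106105, chromosome 7, 30594681 to 30634033, plus strand; log2 fold change 0.43 ± 0.11, SE; adjusted p = 0.0243 in limma). A share within each sample does not depend on the scaling between samples. GARS made up 13.9%, 13.0% and 13.3% of the summed FPKM of the 20 cytosolic genes in DMSO and 19.3%, 20.5% and 21.2% in PD, so it moved from a level near that of SARS to the top of the class. The share of MARS was 3.08%, 3.53% and 3.59% in DMSO and 2.33%, 2.30% and 1.97% in PD. That of TARS was 6.74%, 6.68% and 6.68% in DMSO and 5.71%, 5.61% and 5.65% in PD, while SARS kept overlapping shares of 13.3% to 13.9% and 13.5% to 14.1%. Part of the rise in the share of GARS comes with the sum itself, which holds the 6 genes that fell. The change in GARS did not pass under quantile normalization (log2 fold change 0.10, adjusted p = 0.31 in limma), with no filter (0.0878) or without DMSO replicate 2, DMSO replicate 3 or PD replicate 2 (adjusted p = 0.0939, 0.0799 and 0.0664 in limma).

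**Figure D3:**
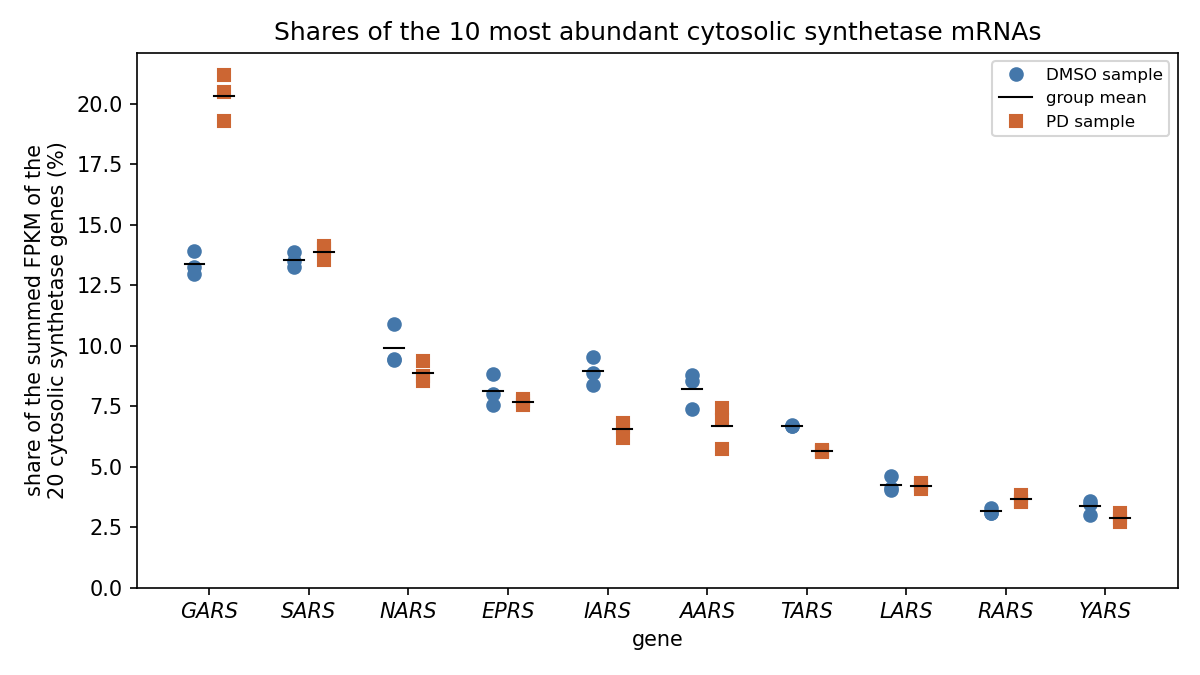
Share (%) of the summed FPKM of the 20 cytosolic genes held by each of the 10 most abundant, by sample (circles DMSO, squares PD, black lines group means). GARS rises from about 13.0% to 13.9% in DMSO to between 19.3% and 21.2% in PD, the largest shift among the 10 genes plotted.

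GARS shares its start region with a divergent transcript, GARS-DT, whose annotation overlaps it by 129 bases on the opposite strand. GARS-DT stood at 1.73, 2.18 and 1.89 FPKM in DMSO and at 3.53, 3.90 and 2.88 FPKM in PD (log2 fold change 0.59 ± 0.12, SE; adjusted p = 0.0131 in limma), named after its value was seen. Both genes of this pair were thus higher in PD. With an unstated strand setting, reads in the shared stretch cannot be assigned to one of them.

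Of the 7 cytosolic genes whose windows held TGATGNAA, 4 fell (MARS, IARS, AARS and TARS), 1 rose (GARS) and 2 did not pass (CARS and NARS). Of the 9 cytosolic genes whose windows did not hold it, 1 fell (WARS) and 8 did not pass. Over all genes tested, 12.7% fell and 14.3% rose. YARS, which also fell, had no window and is in neither count. The share called among all genes that hold the letters was not computed. The search was made with these results known, so the counts are a description, and a link between element and change was not tested. The element was seen both in members that fell and in the one that rose. The mRNA of ATF4 stood at 266 ± 24.4 FPKM in DMSO and at 235 ± 9.14 FPKM in PD (SD, n = 3). Its log2 fold change of -0.17 did not pass (adjusted p = 0.25 in limma). ATF4 protein was not measured here, and whether ATF4 had a part in these changes was not tested.

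The other 13 cytosolic genes did not pass the test, with log2 fold changes from -0.35 for FARSB to 0.05 for RARS. NARS, the asparagine enzyme, stood at 161, 129 and 134 FPKM in DMSO and at 109, 103 and 127 FPKM in PD (-0.32, adjusted p = 0.0964 in limma). EPRS, the bifunctional glutamate and proline enzyme of the complex, stood at 130, 110 and 107 FPKM in DMSO and at 93.8, 94.4 and 105 FPKM in PD (-0.24, adjusted p = 0.14 in limma). Both were lower in every PD sample than in every DMSO sample without passing. FARSB, the beta subunit of the phenylalanine enzyme, stood at 41.0, 33.3 and 36.4 FPKM in DMSO and at 26.6, 26.0 and 34.0 FPKM in PD (adjusted p = 0.0868 in limma), with groups that overlapped. The alpha subunit gene FARSA had a log2 fold change of -0.01.

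KARS, which also serves mitochondria, stood at 33.3, 35.5 and 38.8 FPKM in DMSO and at 35.9, 33.1 and 38.4 FPKM in PD. QARS, the glutamine enzyme, stood at 18.6, 20.9 and 21.6 FPKM in DMSO and at 21.5, 19.5 and 18.4 FPKM in PD. SARS, the serine enzyme, which also charges the selenocysteine tRNA, stood at 195, 185 and 197 FPKM in DMSO and at 175, 164 and 189 FPKM in PD. The groups overlapped for all 3 genes, with log2 fold changes of -0.00201, -0.04 and -0.13. LARS, the leucine enzyme, and DARS, the aspartate enzyme, stood at -0.18 and -0.16, CARS at -0.07, HARS at -0.02, VARS at -0.01 and RARS at 0.05. The signs of FARSA, HARS, KARS, QARS, RARS and VARS changed under 2 to 5 of the 18 alternatives, so no direction is read for them. Some of these genes have neighbours on the opposite strand: HARS and HARS2 overlap by 437 bases, and LARS overlaps by 7375 bases with the antisense gene AC091887.1, listed at a mean of 3.26 FPKM in DMSO and 8.10 FPKM in PD. Among the mitochondrial members, MARS2 overlaps AC011997.1 by 3019 bases and VARS2 overlaps GTF2H4 by 5865 bases, both on the same strand. Expressed neighbours on the opposite strand also overlap YARS (S100PBP, 1387 bases), YARS2 (DNM1L, 18161 bases) and AIMP2 (EIF2AK1, 1591 bases). Their means were 5.43, 15.4 and 32.7 FPKM in DMSO and 4.56, 13.9 and 26.3 FPKM in PD. Further members overlap other genes that are not named here. The part of such neighbours in the values was not tested.

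The cytosolic calls by structure and place can be read against the 12.7% of all genes that fell and the 14.3% that rose. Of the 8 enzymes of the multi-synthetase complex 2 fell and 0 rose, and of the 12 enzymes outside it 4 fell and 1 rose. Of the 9 class I enzymes 4 fell and 0 rose, and of the 10 class II enzymes 2 fell and 1 rose, EPRS being a fusion of both. No difference between these groups was tested. Of the scaffold proteins, EEF1E1, a small glutathione transferase-like protein, stood at 5.16, 4.29 and 4.09 FPKM in DMSO and at 3.06, 3.28 and 4.08 FPKM in PD. Its groups did not overlap, by a narrow margin, and its log2 fold change of -0.30 did not pass (adjusted p = 0.114 in limma). The gene EEF1E1-BLOC1S5, listed at 0, overlaps EEF1E1 by 29171 bases on the same strand, and the effect on its value was not tested. AIMP2 and AIMP1, with -0.22 and -0.14, had overlapping groups.

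No mitochondrial synthetase gene passed at an adjusted p under 0.05 in limma, and 0 did with voom on the recovered reads. Of all 13579 genes tested, 2667 were lower and 2792 higher at an unadjusted p under 0.05 in limma. Of the 15 mitochondrial genes 2 passed at that threshold, both lower in PD. These were RARS2, the arginine enzyme, at 7.60, 7.28 and 8.10 FPKM in DMSO and 5.04, 6.22 and 6.89 FPKM in PD (log2 fold change -0.30, adjusted p = 0.0925 in limma), and MARS2, the methionine enzyme, at 7.59, 6.82 and 7.47 FPKM in DMSO and 6.04, 5.07 and 6.65 FPKM in PD (-0.27, adjusted p = 0.112 in limma). In both genes every PD sample was below every DMSO sample, as also in TARS2 and PARS2, and as in 21.9% of all genes tested. TARS2, the threonine enzyme, stood at 11.4, 10.9 and 11.2 FPKM in DMSO and at 10.8, 8.48 and 9.16 FPKM in PD (-0.22, adjusted p = 0.148 in limma).

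IARS2 stood at 87.1, 71.0 and 71.2 FPKM in DMSO and at 59.5, 62.1 and 75.2 FPKM in PD (-0.22, adjusted p = 0.245 in limma), and its groups overlapped through PD replicate 3. YARS2, the tyrosine enzyme, was the mitochondrial gene with every PD sample above every DMSO sample, at 12.9, 12.2 and 12.8 FPKM in DMSO and 14.4, 13.9 and 14.3 FPKM in PD (0.16, adjusted p = 0.167 in limma). VARS2 and WARS2 had log2 fold changes of 0.21 and 0.17 with overlapping groups. The remaining mitochondrial genes lay between -0.22 for PARS2 and 0.02 for LARS2, whose sign changed under 6 of 18 alternatives.

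Set side by side by amino acid, 16 pairs had both genes tested, and in 12 of them the cytosolic log2 fold change was the lower one. By the percent change of mean FPKM, which does not compress low levels, it was lower in 11, the proline pair of EPRS (-15.5%) and PARS2 (-20.4%) turning round. EPRS and FARS2 each enter 2 of the pairs. The 6 cytosolic genes that fell had partners at -0.27 (MARS2), -0.22 (IARS2), -0.11 (AARS2), -0.22 (TARS2), 0.16 (YARS2) and 0.17 (WARS2). For tyrosine the ratio of YARS to YARS2 was 3.44, 3.90 and 3.98 in DMSO and 2.65, 2.50 and 2.56 in PD. For tryptophan the ratio of WARS to WARS2 was 10.8, 10.7 and 12.4 in DMSO and 6.52, 7.93 and 7.58 in PD. In 7 of the 16 pairs, those of alanine, isoleucine, methionine, asparagine, threonine, tryptophan and tyrosine, all PD ratios were below all DMSO ratios. In 1 pair they were all above: the ratio of RARS to RARS2 was 5.95, 5.81 and 5.77 in DMSO and 8.87, 6.92 and 7.54 in PD. In the other 8 pairs the groups overlapped. No share over other pairs of genes was computed, so these counts have no reference of their own kind. For single genes, all PD samples lay below all DMSO samples in 21.9% of all genes tested and above them in 22.5%. Differences between the fold changes of a pair were not tested, so the pairs are a description.

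**Figure D4:**
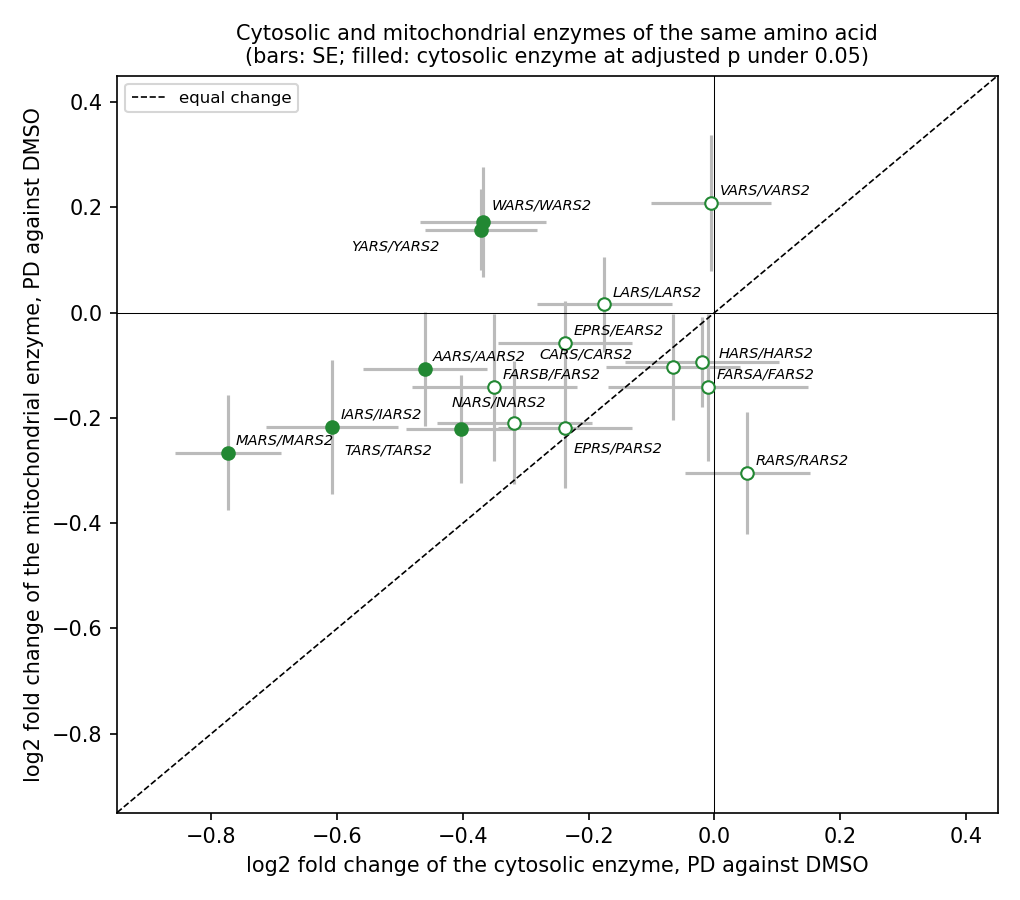
Log2 fold change (PD against DMSO) of the cytosolic gene on the x axis and of the mitochondrial gene of the same amino acid on the y axis for the 16 pairs with both genes tested, with SE bars and a dashed line of equal change. Filled points mark cytosolic genes past the test, and 12 of the 16 pairs lie above the dashed line.

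Without DMSO replicate 1 and PD replicate 3, 8 cytosolic genes fell, FARSB and NARS being added to the 6, and GARS rose (log2 fold change 0.41, adjusted p = 0.0168 in limma). In the same fit 0 mitochondrial genes passed in either direction and 2 scaffold genes fell. Of all 13579 genes tested, 2156 fell and 2402 rose in that fit, against 1731 and 1947 in the main fit. After correction for transcript GC content, added after seeing the data, 9 cytosolic genes fell and 1 rose, 2 mitochondrial genes fell (RARS2 and TARS2), and 1 scaffold gene fell (EEF1E1). More genes passed in general after this correction: of all 13572 genes, 2874 fell and 2524 rose. The number of cytosolic genes that fell dropped to 3 without DMSO replicate 2, to 2 without DMSO replicate 3 and to 2 without PD replicate 2. The number over all genes that fell dropped to 993, 932 and 859 in the same order. In each of these 3 fits GARS did not pass, as given above.

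Genes that work beside the synthetases were looked up by list. Among 13 tested genes of tRNA charging, proofreading and export, 3 fell (23.1%) and 1 rose (7.69%), against 12.7% and 14.3% of all genes tested. XPOT, which exports tRNA from the nucleus, fell from 88.4 ± 8.03 to 66.1 ± 6.36 FPKM (SD, n = 3). The D-aminoacyl-tRNA deacylase DTD2 and SEPSECS, which makes selenocysteinyl-tRNA, were at -0.57 and -0.42. The one that rose was the peptidyl-tRNA hydrolase PTRH2, from 11.9 ± 0.585 to 21.6 ± 0.0929 FPKM. The number that fell was 0 with no filter and between 0 and 3 without 1 sample: 0 without DMSO replicates 1 or 3 or PD replicates 1 or 2, each in turn, and 1 without DMSO replicate 2.

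Among 9 tested elongation and termination factors of the cytosol, 1 rose and 0 fell. At an unadjusted p under 0.05 in limma 2 were higher and 0 lower, against 2792 and 2667 of all 13579 genes tested. With voom 2 were higher and 0 lower, against 2174 and 2098 of all genes. EEF1A1, which carries charged tRNA to the ribosome, rose from 831 ± 33.6 to 1171 ± 79.9 FPKM (SD, n = 3). EEF1A1 has many near-identical pseudogenes, so its value is uncertain. The 1 of 9 that rose (11.1%) is near the 14.3% of all genes. Among 13 mitochondrial translation factors 1 fell and 1 rose (7.69% each, below the 12.7% and 14.3% of all genes), GFM2, a ribosome recycling factor, from 15.2 ± 1.92 to 9.76 ± 0.964 FPKM and MTRF1, a release factor, from 4.12 ± 0.585 to 5.87 ± 0.378 FPKM.

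In the amino acid response list, which holds ATF4, its known targets and the upstream kinase gene EIF2AK4, 7 of 18 tested genes fell (38.9%, against 12.7% of all genes) and 2 rose (11.1%, against 14.3%). CHAC1, PSAT1, PSPH and PHGDH had the largest falls, with log2 fold changes of -1.44, -1.29, -0.92 and -0.89. EIF2AK4, which encodes the kinase GCN2 that senses uncharged tRNA, fell from 15.9 ± 0.884 to 11.7 ± 0.884 FPKM (SD, n = 3; adjusted p = 0.0153 in limma). ASNS, which makes asparagine, stood at 6.63 ± 0.318 and 6.40 ± 0.78 FPKM without passing. The 2 that rose were DDIT3 and the transporter subunit SLC3A2. The lists were chosen with earlier results of these data known.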

How the data were processed

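FPKM values and gene lengths are as the authors deposited them. Per the labels' protocols, libraries were made from total RNA with a stranded mRNA kit and read as pairs. Aligner, counter and strand setting: not given in the sources used here. GRCm38 and mm10, both mouse builds, appear in the submitters' processing notes, but all 58735 identifiers and coordinates match human GENCODE release 29 (GRCh38). Columns were matched to samples by group prefix and the number ending each title. FPKM times length was a whole multiple of 1 step per sample for 100% of values above 0 (tolerance 0.01), which gave reads per gene. The implied denominators were 1.03 to 1.10 times the gene total in DMSO and 0.947 to 1.00 times in PD, a scaling between samples of unstated origin.

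Values were taken as log2(FPKM + 1), and 13579 genes with at least 1 FPKM in at least 3 samples were tested by limma (version 3.58.1, R 4.3.3; two-sided, trended variance, no covariate, Benjamini-Hochberg over all genes). The fit was also run on simulated reads with a fixed spread and no effect of GC content. That run cannot show how the fit behaves under the GC differences between samples described above. The members and lists were chosen with earlier results of these data known. All members are accounted for, with values per sample for those past the test, the 3 most abundant of each compartment, GARS, KARS, EPRS and QARS, and some others named after their values were seen. A further listed gene is not reported here and is in no count of its list. In each other list up to 4 genes past the test with the largest change are named, with some further ones chosen after their values were seen. Alternatives covered the pseudocount, filter, scaling, variance model, voom on the recovered reads, replicate block, size criterion, samples used and, added after seeing the data, GC content. Figures were drawn with matplotlib 3.10.9.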

Additional observations from a re-analysis of the deposited data

How the results depend on the processing

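Over all genes 1947 rose and 1731 fell. These counts were 1451 and 1075 with no filter, 1254 and 960 at a minimum mean of 5 FPKM, 3189 and 3112 with array weights, 386 and 133 with a 2-fold criterion, and ranged from 1144 to 1877 and from 859 to 1657 without 1 sample. Under quantile normalization 1832 rose and 2088 fell, and with voom 2174 rose and 2098 fell. After GC correction, an alternative chosen after seeing the data, 2524 rose and 2874 fell. Without DMSO replicate 1 and PD replicate 3, 2402 rose and 2156 fell, and 8 cytosolic synthetase genes fell. With equal totals 1408 rose and 2813 fell, a higher share of 33.4% (52.9% with the deposited scaling), and the all-gene median shifted by -0.10. Deviations of same-numbered samples from their group means correlated at -0.39, 0.17 and -0.16. These values carry the GC differences between samples, so they cannot show whether same-numbered samples were paired. With the replicate block 1089 genes rose and 755 fell, and 0 cytosolic synthetase genes rose and 2 fell (MARS and IARS).

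Cytosolic genes that fell numbered 11 with equal totals, 11 under quantile normalization, 0 with a 2-fold criterion and 2 to 7 without 1 sample. Those that rose numbered 0 with no filter, under quantile normalization and with the 2-fold criterion, and 0 to 1 without 1 sample. Their median was -0.29 with equal totals (-0.19 relative to all genes), -0.35 under quantile normalization, -0.16 after GC correction and -0.25 to -0.13 without 1 sample. Mitochondrial genes that fell numbered 5 with equal totals, 1 under quantile normalization, 4 with array weights, 2 after GC correction and 0 to 1 without 1 sample. Their median was -0.15 at a minimum mean of 5 FPKM, -0.20 with equal totals (-0.10 relative to all genes) and -0.18 after GC correction, and -0.15 to -0.08 without 1 sample. Scaffold genes that fell numbered 1 with equal totals, 2 with array weights, 2 without DMSO replicate 1 and PD replicate 3 and 1 after GC correction.

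Among charging and editing partners 0 fell with no filter or with the replicate block, 0 to 3 fell without 1 sample, and 3, 2 and 3 rose with array weights, with voom and after GC correction. Among cytosolic elongation and termination factors 1 fell and 0 rose under quantile normalization, 0 rose with no filter, 2 rose with array weights, 2 with voom and 0 to 1 without 1 sample. Among mitochondrial translation factors 3 fell with equal totals, 2 under quantile normalization, 3 with array weights, 0 with the block, 2 without DMSO replicate 1 and PD replicate 3, 2 after GC correction and 1 to 2 without 1 sample. Of these factors 0 rose with no filter, at the minimum mean or with the block, 3 with array weights, 2 without DMSO replicate 1 and PD replicate 3, 2 after GC correction and 0 to 2 without 1 sample.

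Signs changed only for genes that did not pass. LARS2 stood at -0.0877 with equal totals, -0.00785 with upper quartile scaling and -0.0244 after GC correction. RARS stood at -0.0684 with equal totals, -0.0486 under quantile normalization, -0.000405 with array weights and -0.0205 without DMSO replicate 1 and PD replicate 3. Without 1 sample the log2 fold change ranged from -0.188 to 0.102 for FARSA, -0.140 to 0.0566 for HARS, -0.0528 to 0.0538 for KARS, -0.0159 to 0.0696 for LARS2, -0.0989 to 0.00978 for QARS, -0.0278 to 0.106 for RARS and -0.0641 to 0.0358 for VARS. The cause of these changes was not tested.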
